A study of Mus musculus with 25 samples.

Results

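Reg3b, Reg3g, Sprr2a1 and Duox2 are 4 genes through which intestinal enterocytes act on bacteria near their surface. They were taken as the rows of the UMI table that carry these gene names, 4 of 24089 genes, and all 4 were among the 9956 genes tested, those in which 3 or more libraries each had 3 or more UMIs. A UMI is a molecular barcode, so a UMI count is a count of captured mRNA molecules. The table holds laser capture microdissection (LCM) RNA-seq of jejunum from 2 untreated C57BL/6 male mice of 3 months, kept pathogen-free on regular chow. In each of 5 repeats, the segments were cut from the top and the bottom of the follicle-associated epithelium (FAET, FAEB), the epithelium that covers an isolated lymphoid follicle, from the bottom of the adjacent villus (VB), and from the bottom and the top of the lymphoid follicle itself (ILFB, ILFT). Each library pooled several follicles from serial sections. Repeats 1 and 2 came from mouse 1 and repeats 3, 4 and 5 from mouse 2, so the p-values below measure the spread between libraries of 2 animals.

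REG3 proteins are C-type lectins that enterocytes and Paneth cells secrete into the mucus. REG3γ, encoded by Reg3g, and REG3β, encoded by Reg3b, bind bacterial cell wall components and kill bacteria or keep them away from the epithelium, and in mice both genes are induced by microbial signals through MyD88 and by IL-22 through STAT3. SPRR2A, a small proline-rich protein known first from the cornified envelope of skin, is released by mouse intestinal epithelium and kills Gram-positive bacteria. DUOX2 is a dual oxidase of the apical membrane that releases hydrogen peroxide into the lumen, and it needs its maturation factor DUOXA2 to leave the endoplasmic reticulum.

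Reg3b and Reg3g lie in 1 cluster of lectin genes on mouse chromosome 6. In GENCODE M21 on GRCm38, Reg3b (ENSMUSG00000071356) is at chr6:78370657-78373466 on the plus strand and Reg3g (ENSMUSG00000030017) at chr6:78466269-78468872 on the minus strand, 92802 bases apart, with 6 exons each in the longest coding transcript. The 250 bases before their RefSeq start sites (GRCm38.p6, at chr6:78370635-78370884 for Reg3b and chr6:78468875-78469124 for Reg3g) are shown because the levels of the genes part from each other in several libraries although these stretches are alike. Capitals mark the letters TATAAA, which begin 29 bases before the start site of Reg3b and 27 bases before that of Reg3g.
Reg3b: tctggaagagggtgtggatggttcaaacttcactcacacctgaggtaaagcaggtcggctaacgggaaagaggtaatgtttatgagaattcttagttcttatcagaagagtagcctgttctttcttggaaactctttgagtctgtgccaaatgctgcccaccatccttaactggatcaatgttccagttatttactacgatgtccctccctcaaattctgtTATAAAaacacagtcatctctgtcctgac
Reg3g: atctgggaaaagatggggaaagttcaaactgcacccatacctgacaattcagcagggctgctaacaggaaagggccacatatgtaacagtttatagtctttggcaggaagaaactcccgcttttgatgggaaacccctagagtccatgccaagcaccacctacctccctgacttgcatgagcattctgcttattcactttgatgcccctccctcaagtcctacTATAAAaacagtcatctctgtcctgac
A global alignment of both stretches had 68.4% identical columns, 173 of 253, and they share the last 20 bases before the start site. The same alignment gave 45.1% for Reg3b with its neighbour Reg3a and 48.0% for Reg3b with Sprr2a1. TATAAA was searched on both strands, where Reg3g has a further match on the other strand, and was present in 12.4% of the 32851 RefSeq promoter stretches of this length. TTCNNNGAA, the letters of a STAT site, which read the same on both strands, occurred once in Reg3b and not in Reg3g, against 7.02% of all promoter stretches. No 66-base window, the length of the cDNA read, was shared between the coding transcripts of Reg3b and Reg3g, so reads of this length that match exactly separate the genes.

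Sprr2a1 (ENSMUSG00000078664) is at chr3:92215799-92221911 on the plus strand and cannot be separated as cleanly from its copies. Of its 2938 transcript windows of 66 bases, 91.4% occur in Sprr2a2 as well, 50.1% in Sprr2a3 and 1.80% in Sprr2b, and 95.1% in at least 1 of the 3. The annotated span of Sprr2a2 also runs over that of Sprr2a1. The 250 bases before the RefSeq start of Sprr2a1 (GRCm38.p6, chr3:92215585-92215834, plus strand) are shown because they equal those of Sprr2a2 in all 250 positions. Capitals mark its match to TTCNNNNGAA, the spacing bound by STAT6, a pattern found in 5.85% of all promoter stretches.
Sprr2a1: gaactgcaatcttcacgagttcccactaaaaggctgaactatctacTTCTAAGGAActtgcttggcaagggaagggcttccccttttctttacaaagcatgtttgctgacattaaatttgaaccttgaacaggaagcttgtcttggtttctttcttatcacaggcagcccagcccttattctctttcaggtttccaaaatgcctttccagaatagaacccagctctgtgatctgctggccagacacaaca
The Sprr2a1 values below are therefore those of the row with this name, and the summed family is given beside them. Duox2 (ENSMUSG00000068452) is at chr2:122279247-122298449 on the minus strand, and 450 bases separate it from Duoxa2, which is transcribed away from it on the plus strand.

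Libraries held 21529 to 213736 UMIs, with a median of 83798, and FAET libraries were the shallowest at 21529 to 78224. Levels are given as UMIs per 10,000 UMIs of protein-coding nuclear genes. By the sums of 20 pan-epithelial and 18 pan-immune genes, 6 libraries went against their label. Immune UMIs outnumbered epithelial ones in FAET of repeat 1 and in VB of repeat 5. The reverse was seen in ILFB of repeat 5 and ILFT of repeats 1, 3 and 4. The pan-epithelial sum was 23.6 to 96.7 per 10,000 of all UMIs in the other 13 epithelial libraries and 1.64 to 14.9 in the other 6 ILF libraries, against 62.3 to 88.6 in the 4 ILF libraries named. Fold changes and calls of the members between compartments are given with and without them. A lower level in a dissected segment can come from fewer cells of a type or from less RNA per cell, which cannot be told apart here.

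**Figure D1:**
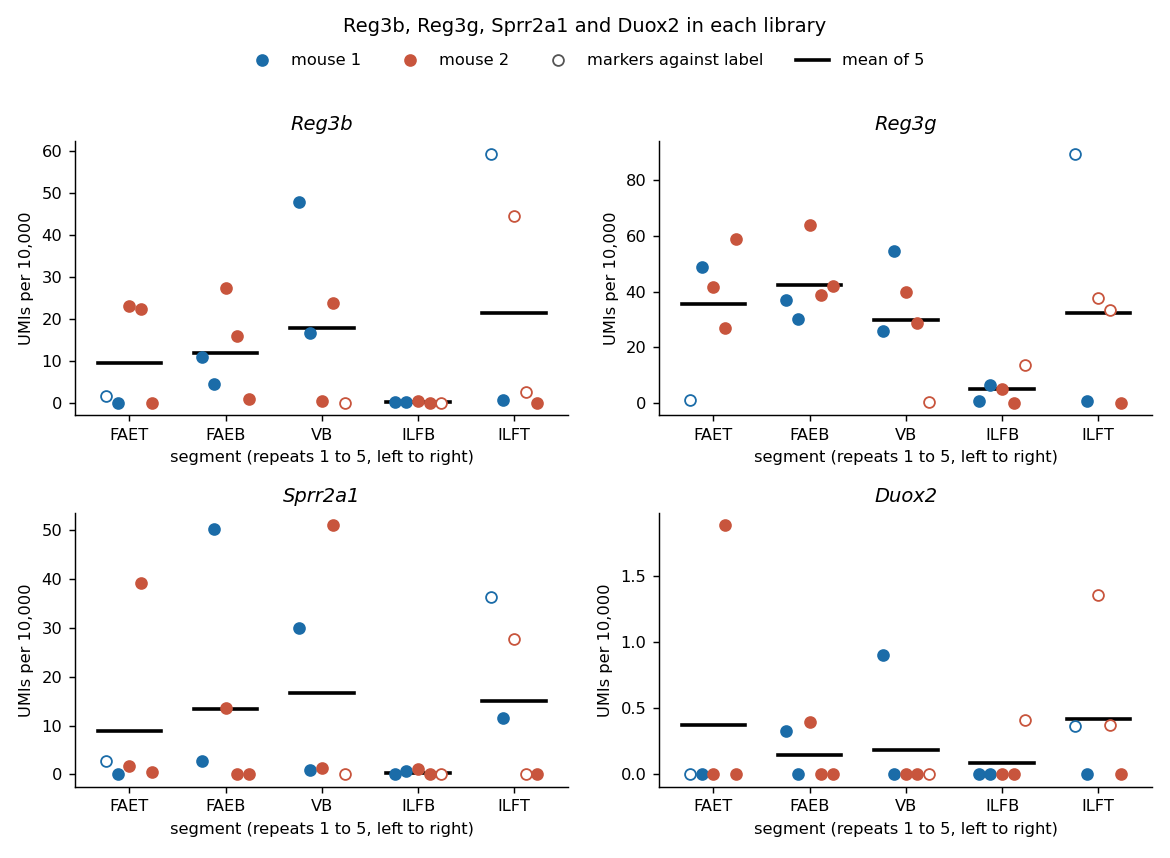
Levels of the 4 genes in every library, as UMIs per 10,000 UMIs of protein-coding nuclear genes, by segment, with repeats 1 to 5 from left to right. Points are libraries, coloured by mouse, open where the markers go against the label, and bars are means of 5 libraries. Reg3g lies between 25.9 and 63.8 in all filled epithelial points, while Reg3b, Sprr2a1 and Duox2 include libraries at or near 0 in every segment.

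Reg3g had the most UMIs of the 4 genes, 2488 in all, and was the steadiest in the epithelium. It had 5, 31, 49, 86 and 119 UMIs in FAET in repeats 1 to 5, which is 1.12, 49.0, 41.8, 26.9 and 59.0 per 10,000. FAEB had 112, 124, 325, 116 and 148 UMIs, or 37.0, 30.3, 63.8, 38.7 and 41.9 per 10,000. VB had 115, 66, 98, 129 and 2 UMIs, or 25.9, 54.6, 39.7, 28.6 and 0.266 per 10,000. The only low epithelial values were FAET of repeat 1 and VB of repeat 5, the epithelial libraries with immune markers, and the 3 segments overlapped. Mean levels were 35.6 ± 22.5 per 10,000 in FAET, 42.3 ± 12.7 in FAEB and 29.8 ± 20.004 in VB (SD, n = 5 each). Over the 13 epithelial libraries with markers of their label, Reg3g was detected in 13 and its coefficient of variation was 0.297, the third smallest among the 318 tested genes with a mean of at least 5 per 10,000, whose median was 0.830.

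Reg3b varied far more in the same libraries. FAET had 7, 0, 27, 71 and 0 Reg3b UMIs in repeats 1 to 5, or 1.57, 0, 23.0, 22.2 and 0 per 10,000. FAEB had 33, 18, 139, 48 and 3 UMIs, or 10.9, 4.40, 27.3, 16.02 and 0.850 per 10,000. VB had 213, 20, 1, 107 and 0 UMIs, or 48.0, 16.5, 0.405, 23.7 and 0 per 10,000. Every epithelial segment thus held libraries with ample Reg3b and libraries with little or none, and the segments overlapped over nearly their whole range. Mean Reg3b levels were 9.37 ± 12.1 per 10,000 in FAET, 11.9 ± 10.4 in FAEB and 17.7 ± 19.8 in VB (SD, n = 5 each), and over the 13 libraries the coefficient of variation was 0.956, with 2 at 0. Reg3a, the third Reg3 lectin in the table, had 187 UMIs in 15 libraries, with 1.00 ± 2.24 per 10,000 in FAET, 2.47 ± 2.63 in FAEB and 4.24 ± 5.75 in VB (SD, n = 5 each).

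Sprr2a1 came as high values in few libraries. FAET had 12, 0, 2, 125 and 1 UMIs in repeats 1 to 5, or 2.69, 0, 1.71, 39.2 and 0.496 per 10,000. FAEB had 8, 206, 69, 0 and 0 UMIs, or 2.64, 50.3, 13.5, 0 and 0 per 10,000. VB had 133, 1, 3, 230 and 1 UMIs, or 29.9, 0.827, 1.22, 51.0 and 0.133 per 10,000. FAET of repeat 4, FAEB of repeat 2 and VB of repeats 1 and 4 thus stood above the rest, and 89.3% of the FAET UMIs came from the single library of repeat 4. Mean levels were 8.81 ± 17.0 per 10,000 in FAET, 13.3 ± 21.4 in FAEB and 16.6 ± 23.0 in VB (SD, n = 5 each), with SDs above every mean. In a library with no UMI, 3 UMIs is taken as the limit that a count of 0 allows, which is 1.00 per 10,000 in FAEB of repeat 4 and 0.850 in FAEB of repeat 5, so Sprr2a1 in these libraries lay well under the 50.3 of FAEB of repeat 2. Such limits, like the binomial intervals below, cover counting error only.

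Duox2 was near the limit of detection, with 26 UMIs in 8 of 25 libraries. FAET had 6 UMIs in repeat 4 and none in the others, FAEB had 1 in repeat 1 and 2 in repeat 3, and VB had 4 in repeat 1. ILFB had 1 UMI in repeat 5, and ILFT had 2, 9 and 1 in repeats 1, 3 and 4, all libraries with epithelial markers. The 6 ILF libraries with immune markers held no Duox2 UMI. Duoxa2, the maturation factor of Duox2, had 39 UMIs in 5 libraries, namely 4 and 2 in FAEB of repeats 1 and 3 and 4, 20 and 9 in ILFT of repeats 1, 3 and 4. All 5 held Duox2 as well, although VB of repeat 1 and FAET of repeat 4, with 4 and 6 Duox2 UMIs, had no Duoxa2. Duox1, the other dual oxidase, had 3 UMIs in all, and Duoxa1, its maturation factor, had 9.

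Among the epithelial segments, which ask whether enterocytes over a follicle lower their antibacterial program, no member passed a test. In FAET against VB, edgeR gave log2 fold changes of -1.39 ± 1.08 for Reg3b, -0.18 ± 0.91 for Reg3g, -1.15 ± 1.00 for Sprr2a1 and 0.60 ± 1.96 for Duox2 (± SE), with adjusted p from 0.608 to 0.997, and 0 of 4 members were called against 0.01% of all genes tested. The median of all genes in that comparison was -0.56, so the value of Reg3g lay above it and those of Reg3b and Sprr2a1 below it. In FAET against FAEB the log2 fold changes were -0.65 ± 0.99, -0.79 ± 0.90, -0.59 ± 1.11 and 1.21 ± 1.60 in the same gene order (± SE), beside a median of -0.48, with adjusted p from 0.757 to 0.892 and no gene called (0% of those tested, though 1424 of 9956 had an unadjusted p under 0.05). DESeq2 called 4 genes and limma-voom 0 in that comparison. In FAEB against VB they were -0.73 ± 1.02, 0.60 ± 0.90, -0.56 ± 1.04 and -0.61 ± 1.53 (± SE), each with an adjusted p of 1, and 0 members were called against 0.0201% of all genes.

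The edgeR common dispersion was 1.78, a biological coefficient of variation of 1.33, so the absence of a call does not show that the segments are alike. On the level per 10,000 no member passed either. Exact permutation tests of the Kruskal-Wallis statistic over FAET, FAEB and VB, with segments exchanged within each mouse, gave p = 0.554 for Reg3g, p = 0.737 for Reg3b, p = 0.917 for Sprr2a1 and p = 1 for Duox2, and each was 1 after adjustment over 8612 genes. The mean Reg3g level differed by 5.76 per 10,000 between FAET and VB (exact 2-sided permutation p = 0.683), by -6.77 between FAET and FAEB (exact permutation p = 0.583) and by 12.5 between FAEB and VB (exact permutation p = 0.333), where the smallest p that 120 arrangements allow is 0.0167. Reg3g was higher in FAEB than in VB in 4 of 5 repeats, but its mean difference was -6.60 per 10,000 in mouse 1 and 25.3 in mouse 2. For FAET minus VB the Reg3g difference was -15.2 in mouse 1 and 19.7 in mouse 2, and that of Reg3b was -31.5 in mouse 1 and 7.05 in mouse 2. In mouse 1, FAET of repeat 1 carries immune markers, as VB of repeat 5 does in mouse 2, and without both libraries the mean Reg3g level was 44.2 ± 13.5 per 10,000 in FAET (n = 4), 42.3 ± 12.7 in FAEB (n = 5) and 37.2 ± 13.03 in VB (n = 4).

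The ratio of the lectins was then taken within each library with at least 10 UMIs of both together, since depth sets the precision of this ratio but not its scale. Reg3b made up 58.3, 0, 35.5, 45.2 and 0% of the summed Reg3b and Reg3g UMIs in FAET in repeats 1 to 5, the first of these from 12 UMIs. In FAEB it made up 22.8, 12.7, 30.0, 29.3 and 1.99%, and in VB 64.9, 23.3, 1.01 and 45.3% in repeats 1 to 4. With 0 of 119 UMIs in FAET of repeat 5, the exact Clopper-Pearson 95% interval ran up to 3.05%, and with 213 of 328 in VB of repeat 1 it ran from 59.5 to 70.1%, so single libraries differed beyond counting error. Pooled over libraries the share was 26.6% of 395 UMIs in FAET, 22.6% of 1066 in FAEB and 45.4% of 751 in VB. The mean share was 27.8 ± 26.7% in FAET (n = 5), 19.3 ± 11.9% in FAEB (n = 5) and 33.6 ± 27.6% in VB (SD, n = 4), with an exact permutation p of 0.693 over the 3 segments (0.717 after adjustment over 4 tests). Summed over segments, Reg3b was 44.3, 13.4, 37.6, 35.6 and 0.984% of both lectins in repeats 1 to 5, the last from 3 of 305 UMIs.

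**Figure D2:**
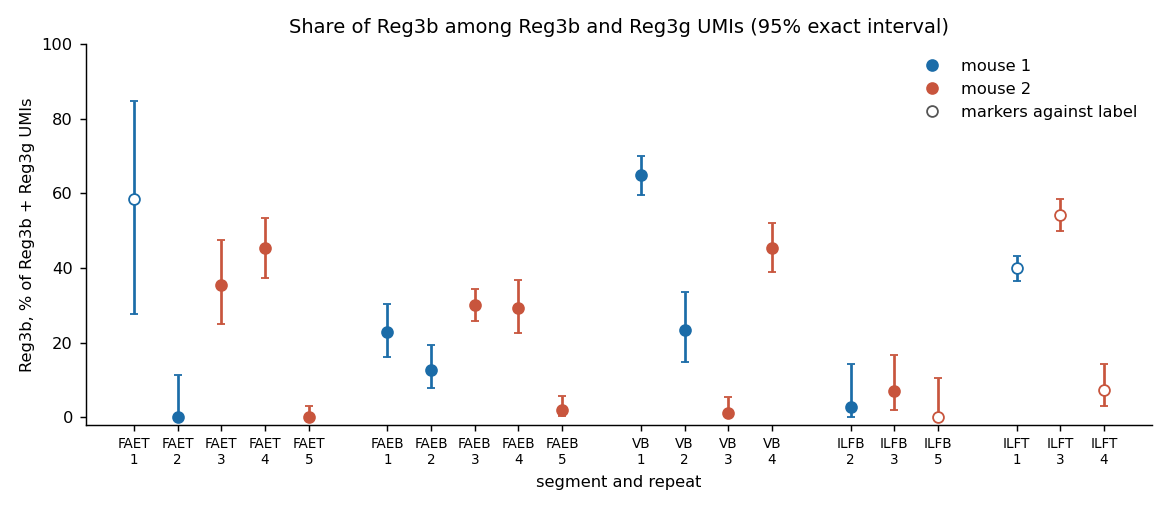
Percentage of Reg3b among Reg3b and Reg3g UMIs in the 20 libraries with at least 10 such UMIs, by segment and repeat, coloured by mouse, open where the markers go against the label. Bars are exact 95% binomial intervals. The share runs from 0 of 119 UMIs in FAET of repeat 5 to 64.9% in VB of repeat 1, and every repeat 5 library lies under 2%.

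Libraries at the ends of that range varied in markers of secretory cells, also among those with a low share. The sum of the goblet cell genes, 10 of 11 of which are in the table, was 1.85 per 10,000 of all UMIs in FAET of repeat 5 and 6.92 in FAEB of repeat 5, where the Reg3b share was 0 and 1.99%, and 39.7 in VB of repeat 1, where it was 64.9%. FAET of repeat 2 and VB of repeat 3, with shares of 0 and 1.01%, had goblet sums of 26.01 and 34.1. The sum of the Paneth cell genes, 12 of 14 in the table, was 0 in FAET of repeat 2, 3.49 in FAET of repeat 5 and 1.37 in VB of repeat 1. FAET of repeat 2 was the shallowest library, with 21529 UMIs, so its sum of 0 does not exclude a low level. The part of these cells in the Reg3b level was not tested.

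Within the follicle, ILFB was set against ILFT. Reg3b had 1, 1, 4, 0 and 0 UMIs in ILFB in repeats 1 to 5, against 328, 1, 297, 7 and 0 UMIs in ILFT. Sprr2a1 had 0, 4, 11, 2 and 0 UMIs in ILFB, against 200, 21, 185, 0 and 0 in ILFT. Reg3g had 4, 36, 54, 0 and 33 UMIs in ILFB, against 495, 1, 250, 90 and 0 in ILFT. The highest Reg3b and Reg3g values in ILFT came from repeats 1, 3 and 4, the ILFT libraries with epithelial markers. For Sprr2a1 they came from repeats 1 and 3, with none in repeat 4. ILFT of repeat 2, which carries immune markers, had Sprr2a1 at 11.5 per 10,000, or 51.2 per 100 pan-epithelial UMIs. The ILFB and ILFT values overlapped for each gene. Reg3b had a log2 fold change of -6.81 ± 1.28 (SE, edgeR adjusted p = 0.000508) and Sprr2a1 of -4.83 ± 1.16 (adjusted p = 0.0402), so 2 of 4 members were called lower in ILFB, against 0.0402% of all genes called lower and 0.0904% called in either direction. Reg3g, at -2.89 ± 0.97 (adjusted p = 0.208), and Duox2, at -2.72 ± 1.499 (adjusted p = 0.407), were not called.

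Neither call was kept when the libraries in doubt were removed. Without the 6 libraries against their label, the log2 fold change in ILFB against ILFT was 0.48 ± 1.62 for Reg3b (adjusted p = 0.895), -2.16 ± 1.27 for Sprr2a1 (adjusted p = 0.403) and 4.42 ± 1.52 for Reg3g (adjusted p = 0.403), and no Duox2 UMI was left, so 0 of 3 members were called against 0.0301% of all genes. The median over all genes was 1.86 in this comparison without the 6 libraries, against 0.66 over all 25. The value of Reg3b thus lay below the median in both sets of libraries. Only 2 ILFT and 4 ILFB libraries were left, so a lost call does not show that these segments are alike. With the replicate block added, Reg3b was at -2.16 ± 2.49 (SE, edgeR adjusted p = 0.782). With the repeat number as a replicate block the calls were also lost, at -6.10 for Reg3b (adjusted p = 0.0765) and -4.92 for Sprr2a1 (adjusted p = 0.147). With DESeq2 Reg3b was at -6.99 and not called (adjusted p = 0.0530). With limma-voom neither Reg3b (-4.18, adjusted p = 0.161) nor Sprr2a1 (-3.25, adjusted p = 0.301) was called. Of the 25 libraries left out one at a time, ILFT of repeat 1 alone ended the Reg3b call (-5.51, adjusted p = 0.0515), while the Sprr2a1 call was lost without any 1 of 19 libraries (-5.72 to -3.88, adjusted p from 0.0505 to 0.305). It was kept without FAET of repeat 1 or 3, FAEB of repeat 2, VB of repeat 5 or ILFT of repeat 2 or 4, and lost without each of the others. The exact permutation test gave a difference of -21.3 per 10,000 for Reg3b (p = 0.0667, adjusted p = 0.668).

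The epithelial segments together were then set against the follicle. Over all 25 libraries Reg3b was higher in the epithelium by 2.43 ± 0.72 on the log2 scale (SE, edgeR adjusted p = 0.0346) and Sprr2a1 by 2.36 ± 0.70 (adjusted p = 0.0348), while Reg3g, at 1.25 ± 0.61 (adjusted p = 0.238), and Duox2, at 0.61 ± 0.81 (adjusted p = 0.743), were not called. That is 2 of 4 members called higher, against 0.472% of all genes called higher and 3.03% called in either direction, with a median of -0.48 over all genes. The contrast averages segments on the log scale, where ILFB was low and ILFT was not. Mean Reg3b was 0.141 per 10,000 in ILFB and 21.4 in ILFT, against 9.37 in FAET, 11.9 in FAEB and 17.7 in VB. Mean Sprr2a1 was 0.371 in ILFB and 15.1 in ILFT, against 8.81, 13.3 and 16.6 in these epithelial segments. Both calls were lost with the replicate block, at 2.86 for Reg3b (adjusted p = 0.0531) and 2.03 for Sprr2a1 (adjusted p = 0.190), and without repeat 4, at 1.67 (adjusted p = 0.353) and 0.22 (adjusted p = 1), where no gene at all was called. Limma-voom called neither Reg3b (adjusted p = 0.245) nor Sprr2a1 (adjusted p = 0.580), and DESeq2 did not call Reg3b (adjusted p = 0.467). The Reg3b call ended without any 1 of 13 libraries, namely FAET of repeats 3 and 4, FAEB of repeats 3 and 4, VB of repeats 1 and 4, ILFB of repeats 1, 2, 4 and 5 and ILFT of repeats 2, 4 and 5 (1.96 to 2.40, adjusted p up to 0.130 without VB of repeat 1). The Sprr2a1 call ended without any 1 of 12, namely FAET of repeat 4, FAEB of repeats 2 and 3, VB of repeats 1 and 4 and the same ILFB and ILFT libraries (1.19 to 2.38). The Sprr2a1 value moved most without FAET of repeat 4 (1.19, adjusted p = 0.349), FAEB of repeat 2 (1.54, adjusted p = 0.225) and VB of repeat 4 (1.70, adjusted p = 0.176). In the test over all 5 segments, Reg3b (adjusted p = 0.00288) and Sprr2a1 (adjusted p = 0.0283) passed, 2 of 4 members beside 1.79% of all genes. The Sprr2a1 call was lost with the replicate block (adjusted p = 0.0959) and without any 1 of 8 libraries, FAEB of repeat 3, VB of repeats 1 and 4 and each ILFB library (adjusted p from 0.0590 to 0.135), and the Reg3b call without repeat 1 (adjusted p = 0.110) or repeat 4 (adjusted p = 0.0575). Limma-voom passed neither Reg3b (adjusted p = 0.148) nor Sprr2a1 (adjusted p = 0.435), and DESeq2 did not pass Reg3b (adjusted p = 0.834). Without the 6 libraries, Reg3b (adjusted p = 1.45e-05), Reg3g (adjusted p = 0.000138) and Sprr2a1 (adjusted p = 0.00290) passed and Duox2 did not (adjusted p = 0.157).

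Reg3g separated the compartments in each library whose markers fit its label. Without the 6 libraries it was 25.9 to 63.8 per 10,000 in 13 epithelial libraries and 0 to 6.32 in 6 ILF libraries, and the ranges did not touch, which held for 0.197% of 8612 genes with the epithelium higher. Its log2 fold change was then 5.25 ± 0.96 (SE, edgeR adjusted p = 1.30e-05). Reg3b, at 5.83 ± 1.11 (adjusted p = 3.12e-05), and Sprr2a1, at 3.40 ± 0.89 (adjusted p = 0.00350), were called as well, 3 of 4 members against 3.37% of all genes called higher and 16.1% called in either direction, although their epithelial range began at 0. With the replicate block added, Reg3b (4.65 ± 1.10, adjusted p = 0.00185) and Reg3g (5.61 ± 0.99, adjusted p = 6.73e-06) were called and Sprr2a1 was not (2.80 ± 1.07, adjusted p = 0.0778). The 4 ILF libraries with epithelial markers had Reg3g at 89.7 in ILFT of repeat 1, 37.5 and 33.3 in ILFT of repeats 3 and 4 and 13.5 in ILFB of repeat 5. Per 100 pan-epithelial UMIs of the same library, Reg3g was at 48.5, 30.9, 21.0 and 7.57 there. These libraries were set aside by marker genes of the compartments compared, so the separation is described for libraries with markers of their label and not for the segments as dissected.

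**Figure D3:**
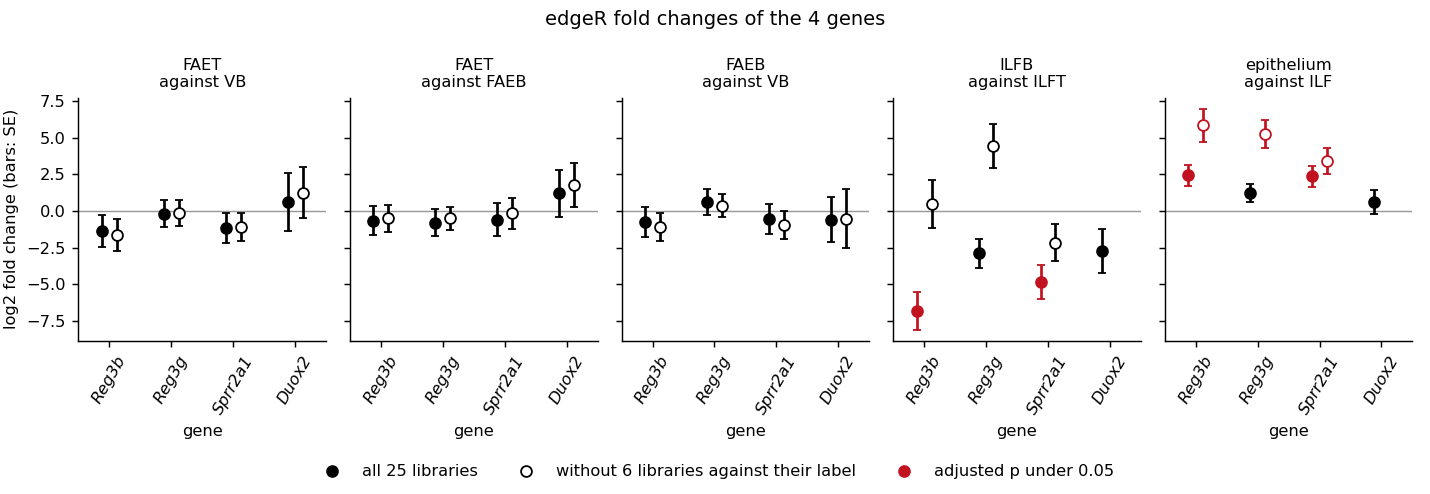
edgeR log2 fold changes of the 4 genes with SE in 5 comparisons, over all 25 libraries (filled) and after removal of the 6 libraries named above (open), in red where the adjusted p was under 0.05. Open Duox2 points are left out in both comparisons with the follicle, where the ILF libraries held no Duox2 UMI. No point is red among the 3 epithelial comparisons, and Reg3b in ILFB against ILFT moves to 0.48 without these libraries, against -6.81 with them. The open points of that comparison rest on 2 ILFT and 4 ILFB libraries.

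Sprr2a1 moved with its copies. Sprr2a1, Sprr2a2, Sprr2a3 and Sprr2b held 1214, 816, 401 and 416 UMIs in all, which is 42.6, 28.7, 14.1 and 14.6% of the 4 genes. In the 11 libraries with at least 20 UMIs of these genes together, the Sprr2a1 share ran from 36.4 to 60%, with 54.7% of 338 UMIs in ILFT of repeat 3 and 37.3% of 616 in VB of repeat 4, and the libraries with many Sprr2a1 UMIs had many of each copy, such as 125, 82, 38 and 44 in FAET of repeat 4 and 230, 176, 108 and 102 in VB of repeat 4. Since 95.1% of the Sprr2a1 windows recur in a copy, part of this likeness can come from reads assigned among copies, and its size was not tested. Summed as 1 feature, the 4 genes had a log2 fold change of -4.32 ± 1.02 in ILFB against ILFT (SE, edgeR adjusted p = 0.0299) and were higher in the epithelium by 2.40 ± 0.63 (adjusted p = 0.0185), with no call among the epithelial segments. Without the 6 libraries the summed values were -1.30 ± 1.10 in ILFB against ILFT (adjusted p = 0.499) and 3.59 ± 0.80 in epithelium against ILF (adjusted p = 0.000522).

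**Figure D4:**
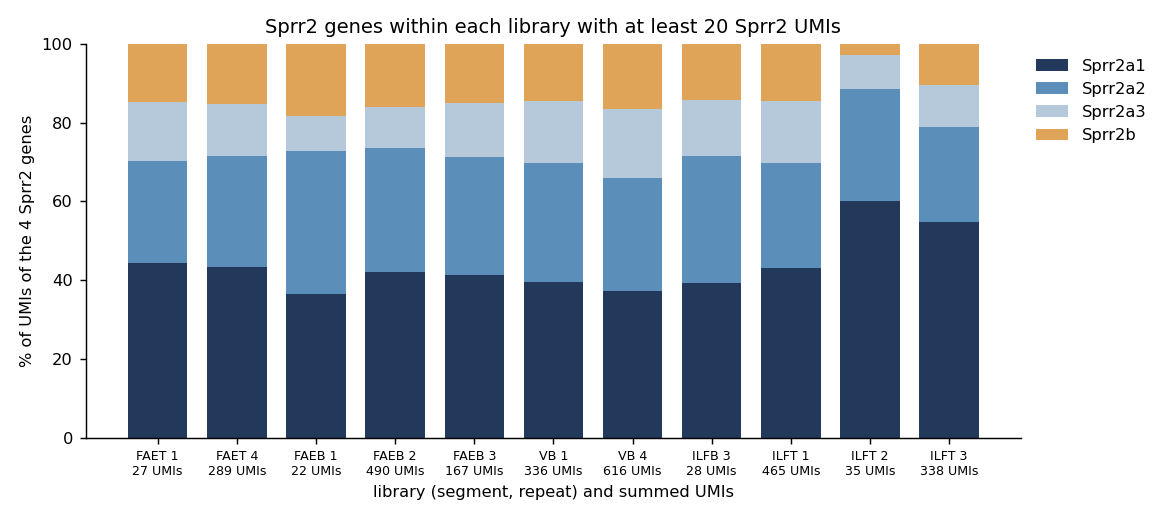
Stacked percentages of Sprr2a1, Sprr2a2, Sprr2a3 and Sprr2b among their summed UMIs (given under each bar) in the 11 libraries with at least 20. Sprr2a1 makes up 36.4 to 60% and Sprr2b 2.86 to 18.2%, with both extremes of Sprr2b in libraries of under 40 UMIs.

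The genes whose levels were most like those of each member over all 25 libraries differed between the lectins. By Pearson correlation of log2(UMIs per 10,000 of all UMIs + 0.1) among 5423 genes, the genes closest to Reg3g included Prap1 (r = 0.93), Anpep, which encodes a brush border aminopeptidase, Smim24 and Guca2b. Reg3b was closest to Tff3 (r = 0.83) and Muc2 of goblet cells, Fabp2 and Fabp1, the fatty acid binding proteins of enterocytes, and Ces2c. Reg3b stood at rank 127 for Reg3g (r = 0.61), while in the order for Reg3b, Reg3a stood at rank 7, Sprr2a1 at rank 28 and Reg3g at rank 86. Sprr2a1 was closest to its copies Sprr2a2 (r = 0.95), Sprr2b and Sprr2a3. These points share libraries, depth and the split between epithelium and follicle. Within the 13 epithelial libraries with markers of their label, r was -0.18 between Reg3b and Reg3g, 0.67 between Reg3b and Reg3a and 0.60 between Reg3b and Sprr2a1, given as descriptions over 13 points.

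Other genes of antibacterial defence were counted from lists, in the comparison of the epithelium with the follicle, over all 25 libraries (3.03% of all genes called, median -0.48) and without the 6 libraries (16.1% called, median -0.62). The list counts differed between these sets of libraries. A further list held genes of other secreted or surface proteins, not all of them antibacterial. Of its 10 tested genes, 0 were called over all libraries (median log2 fold change 0.93), and 6 were called higher without the 6 libraries (median 3.24). These 6 were Lypd8 (4.63 ± 1.08 SE, edgeR adjusted p = 0.000901), which binds flagella of Gram-negative bacteria, the lectin gene Zg16, the peptidoglycan recognition gene Pglyrp1, the membrane mucin gene Muc13, and Guca2a and Guca2b, which encode the guanylate cyclase ligands guanylin and uroguanylin.

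Of 17 tested genes of the IL-22 and STAT3 axis, which induces the Reg3 genes, 0 were called higher and 1 lower over all libraries, namely Il22ra2, the soluble decoy receptor of IL-22 (-2.71 ± 0.81 SE, edgeR adjusted p = 0.0384). Without the 6 libraries Il17rc was called higher and Il22ra2 (-5.99 ± 1.02 SE, adjusted p = 2.53e-06), Il6ra and Jak1 lower. In the dual oxidase and NADPH oxidase list, 0 of 9 tested genes were called over all libraries, and genes called lower without the 6 libraries included Cyba and Ncf1, which encode subunits of the phagocyte oxidase. Over the same libraries 13 of 18 pan-immune genes were called lower, against 3 over all libraries. The sum of these genes was used to set the 6 libraries aside, so the larger count follows in part from that choice. Of 13 genes of hydrogen peroxide handling, 0 were called over all libraries and 2 higher without the 6, Prdx1 and Txn1. Of 15 microbial sensing genes, 0 were called over all libraries, against Nlrp6 higher and Nod1 and Rela lower without the 6. Of 5 type 2 cytokine targets, 0 were called over all libraries, against Dclk1 lower without the 6.

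Of 3 tested Sprr genes other than Sprr2a1, Sprr2b (2.76 ± 0.78 SE, edgeR adjusted p = 0.0284) and Sprr2a2 (2.34 ± 0.72 SE, adjusted p = 0.0452) were called higher over all libraries, and Sprr2a3 as well without the 6. Reg3a was called higher without the 6 libraries (4.23 ± 1.32 SE, adjusted p = 0.0159). Of 9 tested Paneth cell genes, 4 α-defensins were called lower in the epithelium over all libraries, against Defa24, Defa26 and Lyz1 without the 6. In FAET against VB and in ILFB against ILFT, 0 genes of any of these lists were called in either set of libraries.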

How the data were processed

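LCM RNA-seq libraries of 5 segments in 5 repeats from 2 mice were analysed. The deposited table holds raw UMI counts per gene, which the authors made with bcl2fastq 2.15.0.4, zUMIs and STAR on GRCm38 with Ensembl 84 annotation, without normalization (for zUMIs and STAR, the version was not given in the sources used here). Barcoded UMIs remove PCR duplicates, while reads shared by near-identical genes depend on the assignment of the aligner. The labels name 2 different library kits for these samples. Every count column matched a sample. The files' gene names were kept, and 119 genes had no match in GENCODE M21 (GRCm38).

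The 9956 genes in which 3 or more libraries each had 3 or more UMIs were tested on the counts with edgeR 4.0.16 (R 4.3.3) by quasi-likelihood F-tests, modelling segment and mouse in all 25 libraries after TMM scaling. P-values were adjusted by Benjamini-Hochberg over all genes tested, with calls at an adjusted p under 0.05, and SE is that of the log2 fold change. The epithelium against ILF contrast is the mean of FAET, FAEB and VB minus that of ILFB and ILFT. Levels are UMIs per 10,000 UMIs of 16190 protein-coding nuclear genes, leaving out of the denominator 2 genes that reach 5% of a library. On these levels, exact 2-sided permutation tests exchanged segments within mice (SciPy 1.17.1). Library totals were 21529 to 213736 UMIs. Alternatives were RLE factors, the library size of the study, no filter, DESeq2 1.42.0, limma-voom (limma 3.58.1), a replicate block, counts summed per mouse, omission of repeats and omission of the 6 libraries against their label. Omission of single libraries, the summed Sprr2 genes (with and without those 6 libraries) and the block without those 6 libraries were chosen after seeing the data. The members and gene lists were chosen with earlier results of these data known. Named genes are the 4 members, their paralogs and partners, genes among the 5 most like each member, and called genes of the lists, and 2 of these are not reported here. The scripts were tested on simulated data. In counts simulated at the common dispersion for FAET against VB, edgeR called 0% of 50 genes changed 4-fold and 0% of 50 changed 16-fold. It called 8% of those changed 64-fold, 46% of those changed 256-fold and 0% of unchanged genes.

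Repeats of a segment share an animal by design. Deviations of same-numbered libraries correlated at 0.0244 on average over 50 pairs (-0.334 to 0.372), against -0.0109 over 80 pairs of the same mouse with other numbers. Sequences come from the RefSeq promoter table (GRCm38.p6), aligned with Biopython 1.88.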

Additional observations from a re-analysis of the deposited data

Results flagged for a closer look

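In 6 of 23 sets of libraries tested, 1 library stood apart from the others by more than Dixon's critical value. That value was 0.71 for sets of 5 libraries, as all 6 were, and higher for the Reg3b share in VB, which had 4. Chance gives such a library in about 1 in 20 sets of normally distributed values. That rate does not apply to 3 of the 6 sets, in which Duox2 was at 0 in 4 libraries and any UMI in the other exceeds the value. Sprr2a1 was at 50.3 per 10,000 in FAEB of repeat 2, where the next library had 13.5, and at 39.2 in FAET of repeat 4, where the next had 2.69. Duox2 was at 1.88 per 10,000 in FAET of repeat 4 from 6 UMIs and at 0.901 in VB of repeat 1 from 4 UMIs, with no UMI in the other libraries of either segment. In the follicle, Duox2 was at 0.410 in ILFB of repeat 5 from 1 UMI and at 1.35 in ILFT of repeat 3 from 9 UMIs, where the next had 0.370, and both of these libraries carry epithelial markers. FAET of repeat 4 was thus the highest FAET library for both Sprr2a1 and Duox2.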

How the results depend on the processing

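Among the epithelial segments, none of 471 alternative fold changes of the members was called (smallest edgeR-family adjusted p 0.216). The permutation tests say nothing about stability, since 0 genes passed in any setting and the smallest p they allow for a pair of segments was 0.0625 with the replicate block. Of 781 member fold changes under an alternative, 34 changed sign, 1 of them with a called value: Reg3b in ILFB against ILFT was 0.48 without the 6 libraries. The median over all genes was then 1.86, against 0.66 over all libraries. In ILFB against ILFT, Reg3b was called in 34 of 42 settings and Sprr2a1 in 12, and in epithelium against ILF in 20 and 21. The Sprr2a1 counts include settings in which the 4 Sprr2 genes were summed in its place. Since 25 of the settings leave out 1 library each, the settings overlap and their counts do not measure stability. The Reg3b call in ILFB against ILFT was lost with DESeq2, limma-voom, the replicate block and removal of the 6 libraries. It was also lost without ILFT of repeat 1 and without the whole of repeat 1 (-5.37, edgeR adjusted p = 0.166). A count of 0 allows up to 0.226 per 10,000 in the deepest library, ILFB of repeat 4, and 4.74 in the shallowest, FAET of repeat 2, so the Duox2 counts of 0 there do not exclude levels below these. The cause of the changes was not tested.

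Counts of genes called were as follows. With DESeq2 they were 2 in FAET against VB, 4 in FAET against FAEB, 0 in FAEB against VB, 1 in ILFB against ILFT, 2 in epithelium against ILF and 1 over all 5 segments. With limma-voom they were 0 in ILFB against ILFT, 0 in FAEB against VB, 0 in FAET against VB, 28 in epithelium against ILF and 4 over all 5 segments. With the replicate block they were 0 in ILFB against ILFT, 0 in FAEB against VB, 0 in FAET against VB, 80 in epithelium against ILF and 48 over all 5 segments. With counts summed per mouse they were 7 in FAET against FAEB, 5 in FAEB against VB, 27 in ILFB against ILFT, 33 in epithelium against ILF and 67 over all 5 segments, and Reg3g in ILFB against ILFT was then called. With the library size of the study they were 3 in FAET against VB, 2 in FAET against FAEB, 5 in FAEB against VB and 279 over all 5 segments, and with RLE factors 2 in FAET against FAEB and 4 in FAEB against VB. With no filter they were 3 in ILFB against ILFT and 142 in epithelium against ILF. Without the 6 libraries they were 2 in FAET against VB, 3 in FAET against FAEB, 3 in ILFB against ILFT, 1601 in epithelium against ILF and 1547 over all 5 segments, and with the replicate block added 0, 1 in FAEB against VB, 0 in ILFB against ILFT, 805 and 821. With the 4 Sprr2 genes summed and without the 6 libraries they were 1600 in epithelium against ILF and 1543 over all 5 segments. Leaving out a repeat or a library gave 0 to 3 in FAET against VB, 0 to 2 in FAET against FAEB, 0 to 5 in FAEB against VB, 2 to 12 in ILFB against ILFT, 0 to 739 in epithelium against ILF and 16 to 509 over all 5 segments.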
